A study of Mus musculus with 49 samples.

Results

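The comparison described here is that of normal common myeloid progenitors (CMP) with normal granulocyte-macrophage progenitors (GMP), each sorted from mouse bone marrow and profiled by RNA sequencing in 5 samples. The genes described are those with a mean of at least 1 FPKM (sequenced fragments relative to the length of the gene's transcript and to the library size) over these 10 samples, which were 11708 of the 38253 genes in the table. The 10 samples came from a series of 49 in 10 groups, which asks whether a leukaemia keeps a trace of the cell in which it began. CMP and GMP were taken from wild-type (WT) C57BL/6J mice of 6 to 12 weeks, and no transgene or treatment is named for either group. Both gates were Lin-, Sca-1-, c-Kit+, CD150- and CD34+, and they parted at the Fcγ receptor, with CMP low and GMP positive for it. Each sample was from 1 mouse, and the study was run as replicate experiments, but the labels do not say which sample belongs to which. In a comparison at the end, leukaemias started in the same cells were used: CMP:MA9 (n = 4) and GMP:MA9 (n = 6). They were made by retroviral transduction of wild-type CMP or GMP with the MLL-AF9 fusion and transplantation into sublethally irradiated mice. Their RNA was from cells with the GFP reporter sorted from the recipients' spleen, whereas CMP and GMP were from bone marrow. Multipotent progenitors (MPP, n = 6) and megakaryocyte-erythrocyte progenitors (MEP, n = 4) from the same kind of mice served for levels only. So did long-term (LT-HSC, n = 5) and short-term (ST-HSC, n = 5) haematopoietic stem cells, for a few genes.

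In the classical scheme of blood formation, a CMP can give rise to either a GMP or an MEP. The GMP goes on to granulocytes and monocytes, and the MEP to red cells and platelets. The choice is known to involve opposing transcription factors: GATA1 with its cofactor FOG1 (encoded by Zfpm1) and KLF1 on the erythroid side, and PU.1 (encoded by Sfpi1) with the C/EBP family and GFI1 on the granulocyte and monocyte side. Neutrophil granules fill in a fixed order, primary (azurophil) granules with myeloperoxidase and serine proteases first, then secondary and tertiary granules with lactoferrin, cathelicidin and gelatinase as the cell matures. The gates read surface proteins, so each sorted population is a mixture of cells at several points of this scheme. In RNA from such a mixture, a smaller number of cells of one type and less RNA per cell cannot be told apart.

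The promoters of genes from each side of the comparison are shown first. They belong to 4 genes of the primary granule list and 4 of the erythroid and megakaryocyte transcription factor list. In each list these had the largest differences between CMP and GMP. The first list also holds genes of the same stage that do not encode granule contents, such as Ms4a3, a membrane protein. Each is the 250 bases before the transcription start, from RefSeq on GRCm38.p6, 5′ to 3′ on the gene's own strand. This build is not that of the deposited values, which the submitters' processing notes give as mm9, so these coordinates apply only to the sequences. Capitals mark matches, on either strand, to 4 short motifs: GATAA for GATA factors, GAGGAA for PU.1, TTNCNNAA for C/EBP and CCNCNCCC for KLF factors. No match overlapped another here.
Fcnb: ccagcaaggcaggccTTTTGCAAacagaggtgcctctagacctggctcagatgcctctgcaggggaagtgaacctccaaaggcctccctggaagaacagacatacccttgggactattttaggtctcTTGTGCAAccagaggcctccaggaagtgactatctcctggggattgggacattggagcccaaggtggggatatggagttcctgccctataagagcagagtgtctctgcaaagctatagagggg
Ms4a3: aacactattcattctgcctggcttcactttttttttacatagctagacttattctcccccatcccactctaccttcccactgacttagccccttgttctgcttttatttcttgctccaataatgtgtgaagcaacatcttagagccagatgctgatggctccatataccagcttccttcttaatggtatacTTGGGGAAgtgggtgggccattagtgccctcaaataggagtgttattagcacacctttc
Elane: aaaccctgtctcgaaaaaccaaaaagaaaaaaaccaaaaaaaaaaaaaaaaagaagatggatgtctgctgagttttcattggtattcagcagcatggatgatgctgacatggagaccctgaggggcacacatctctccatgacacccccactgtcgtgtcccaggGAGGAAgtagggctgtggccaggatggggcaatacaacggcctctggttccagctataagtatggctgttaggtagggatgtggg
Ctsg: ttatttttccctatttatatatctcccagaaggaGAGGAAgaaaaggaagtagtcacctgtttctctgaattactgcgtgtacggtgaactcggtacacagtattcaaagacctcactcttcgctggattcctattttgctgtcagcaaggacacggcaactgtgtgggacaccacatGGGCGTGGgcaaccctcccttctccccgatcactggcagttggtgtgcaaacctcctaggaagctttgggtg
Zfpm1: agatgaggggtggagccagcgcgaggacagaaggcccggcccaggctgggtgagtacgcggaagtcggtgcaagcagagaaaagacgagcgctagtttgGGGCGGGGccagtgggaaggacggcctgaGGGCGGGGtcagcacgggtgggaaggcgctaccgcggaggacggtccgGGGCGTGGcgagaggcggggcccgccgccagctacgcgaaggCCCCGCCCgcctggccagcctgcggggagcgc
Gfi1b: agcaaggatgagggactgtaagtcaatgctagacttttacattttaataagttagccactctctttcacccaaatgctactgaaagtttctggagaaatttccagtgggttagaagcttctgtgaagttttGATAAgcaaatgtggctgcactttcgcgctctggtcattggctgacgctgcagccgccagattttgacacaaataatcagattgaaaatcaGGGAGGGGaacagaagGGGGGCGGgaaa
Klf1: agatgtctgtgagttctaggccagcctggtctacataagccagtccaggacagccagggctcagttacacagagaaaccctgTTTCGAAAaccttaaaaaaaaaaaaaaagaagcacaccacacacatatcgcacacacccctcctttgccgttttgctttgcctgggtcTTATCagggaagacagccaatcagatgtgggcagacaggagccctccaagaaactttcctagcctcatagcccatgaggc
Gata1: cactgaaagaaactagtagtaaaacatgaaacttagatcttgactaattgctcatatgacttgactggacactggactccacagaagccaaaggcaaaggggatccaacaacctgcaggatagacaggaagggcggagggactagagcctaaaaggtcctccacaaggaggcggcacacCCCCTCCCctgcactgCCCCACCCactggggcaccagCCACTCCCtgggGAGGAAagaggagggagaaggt
The windows lie on the minus strand at chr2:28084879-28085128 for Fcnb, chr19:11640852-11641101 for Ms4a3, chr14:56102575-56102824 for Ctsg, chr2:28621983-28622232 for Gfi1b and chrX:7967911-7968160 for Gata1, and on the plus strand at chr10:79886062-79886311 for Elane, chr8:122281891-122282140 for Zfpm1 and chr8:84901732-84901981 for Klf1. The Fcnb window held 2 C/EBP matches and the Ms4a3 window 1. The Elane window held 1 GAGGAA match, 85 bases before the start, and the Ctsg window held 1 GAGGAA and 1 KLF match. Among the transcription factor genes, Zfpm1 held 4 KLF matches and Gata1 3, with 1 GAGGAA match in Gata1. Gfi1b held 1 GATAA and 2 KLF matches, and Klf1 1 GATAA match, 80 bases before the start, with 1 C/EBP match. Motifs this short are common: GATAA was present in 22.6% of 32851 promoter windows of the same length, GAGGAA in 23.3%, the C/EBP letters in 36.8% and the KLF letters in 45.9%. The matches are therefore a description of the letters in each window.

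The depth of the 10 samples was known only relative to each other. Low FPKM values come in steps worth 1 fragment, and these steps gave relative depths from 0.675 to 1.31, in CMP and GMP alike. Genes detected above 0 numbered 15282 to 17277, the summed FPKM ran from 796266 to 864176, and genes of the mitochondrial genome took 12.5% to 28.2% of it in CMP and 17.6% to 27.5% in GMP. No 2 samples held identical values.

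Among the genes of the sorted surface proteins, Fcgr3 differed in the direction of the gates, while Kit and Slamf1 differed without overlap although their gates were the same. Fcgr3, which encodes the Fcγ receptor III, was at 5.61, 9.98, 5.27, 4.77 and 1.87 FPKM in CMP replicates 1 to 5 and at 162, 189.5, 152, 129.6 and 142 FPKM in GMP replicates 1 to 5. Kit, the stem cell factor receptor, was at 92.7 to 113 FPKM in CMP and 50.6 to 67.4 FPKM in GMP, and Cd34 at 78.7 to 182 FPKM and 70.04 to 98.3 FPKM. Slamf1, which encodes CD150, was low in both, at 2.19 to 3.99 FPKM in CMP and 0 to 0.2 FPKM in GMP, although both gates were set as CD150-. These genes are the gate and are not read as results, although those that were called remain in the totals of genes called below. Of the genes behind the lineage antibodies, Cd3e, Cd4 and Cd8a lay under a mean of 1 FPKM, and Ly6g was at 0 to 0.81 FPKM in CMP and 2.39 to 12.2 FPKM in GMP.

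**Figure D1:**
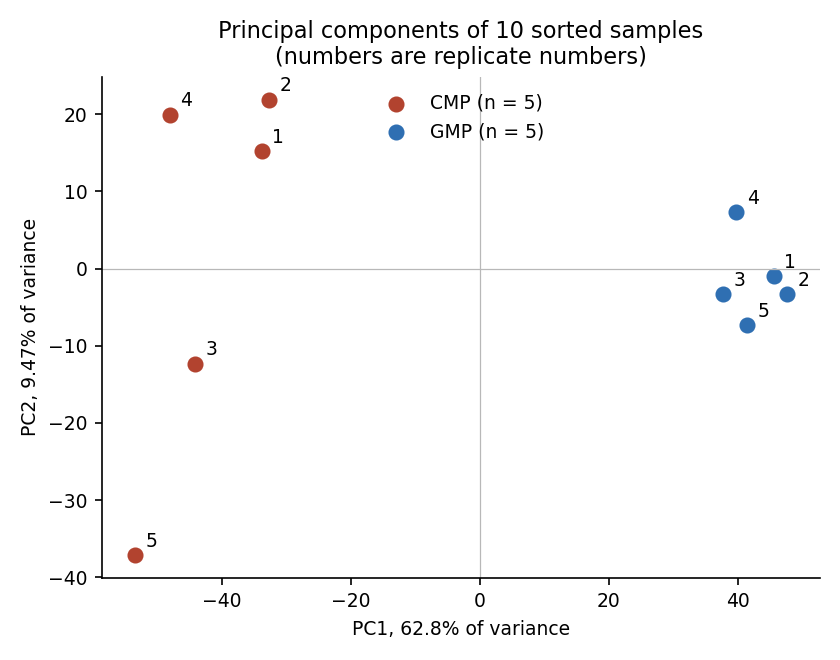
First and second principal components of log2(FPKM + 1) over the 11708 genes, in arbitrary units, for 5 CMP (red) and 5 GMP (blue) samples, with the replicate number beside each point. All CMP samples lie between -53.41 and -32.66 on the first component and all GMP samples between 37.67 and 47.6, while CMP replicate 5 lies apart from the other CMP at -37.13 on the second.

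CMP and GMP were the widest division among the 10 samples. The first principal component held 62.8% of the variance and parted the groups with no overlap. CMP samples were the less uniform, with a median within-group SD of 0.243 on the log2 scale against 0.178 in GMP, and the second component (9.47%) ran from CMP replicate 5 at one end to CMP replicates 1, 2 and 4 at the other. In the plot of the components the GMP samples stand close together. Without CMP replicate 5, the number of genes called between CMP and GMP changed from 1463 to 1421.

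A gene was called where limma gave a Benjamini-Hochberg adjusted p below 0.05 and a difference above 1 on the log2(FPKM + 1) scale, which is written as GMP minus CMP throughout and which compresses the differences of weakly expressed genes. By this rule 1463 genes, or 12.5% of those tested, differed between CMP and GMP. Of these, 493 (4.21% of genes tested) were higher in GMP and 970 (8.28%) were higher in CMP, so that 33.7% of calls were higher in GMP. More than 8-fold differences on this scale numbered 55 genes higher in GMP and 47 higher in CMP. Without regard to the size of the difference, every GMP sample lay above every CMP sample for 1219 genes (10.4%), and the reverse held for 2907 genes (24.8%).

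The excess of genes higher in CMP went with a shift of the whole distribution. The median difference over all genes tested was -0.19, and the difference fell with GC content (Spearman's rho of -0.315 across 11316 genes, which are not independent replicates). When samples were scaled by median ratios, the all-gene median was 0.0013 and 1331 genes were called, 673 higher in GMP and 658 higher in CMP, with 1151 genes shared with the first call. A correction for GC content and length gave 608 and 554. The balance of the directions thus depended on the scaling, and the members of each list are read against the all-gene median.

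**Figure D2:**
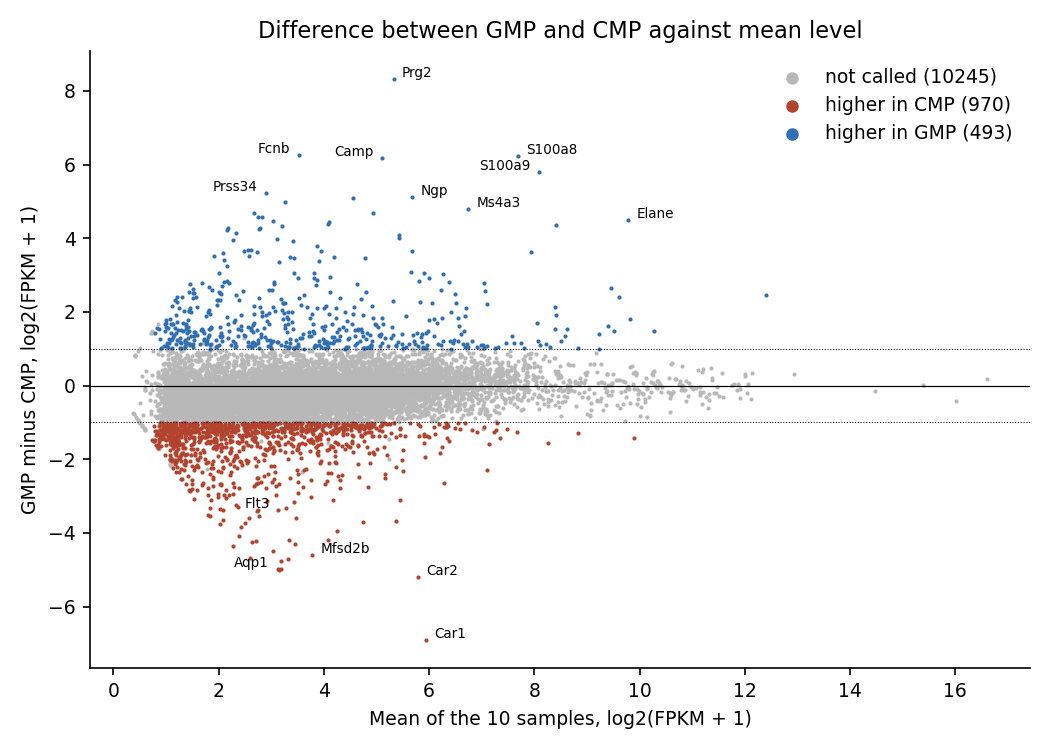
Difference between GMP and CMP (log2(FPKM + 1), vertical axis) against the mean of the 10 samples (log2(FPKM + 1), horizontal axis), 1 point a gene. The 493 genes higher in GMP are blue, the 970 higher in CMP are red and the 10245 not called are grey; dotted lines mark the fold threshold, Prg2 is the highest point and Car1 the lowest.

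The genes with the largest rises in GMP mostly encode products of granulocytes. Prg2, the major basic protein of the eosinophil granule (ENSMUSG00000027073, chr2:84820618-84823789 on the plus strand of NCBIM37), was at 0.62, 0.23, 2.42, 0.59 and 4.21 FPKM in the 5 CMP samples and at 711, 291, 1260.2, 1059 and 694 FPKM in the 5 GMP samples. The lowest GMP sample was far above the highest CMP sample, and the difference of 8.33 (SE 0.44, limma adjusted p = 1.12e-07) was the largest of any gene tested. Fcnb, encoding the lectin ficolin B, differed by 6.26, S100a8 and S100a9, the subunits of calprotectin, by 6.24 and 5.79, and Camp, the cathelicidin precursor, by 6.17. The other genes among the 10 largest rises, which were taken from called genes without overlap between the groups, were Prss34 (5.22), a basophil protease, Ngp (5.12), a neutrophil granule protein, the chitinase-like Chi3l3 (5.08), the lectin receptor Clec4a2 (4.98), and Ms4a3 (4.80), a membrane protein of early myeloid cells. Chi3l3 shares 31.1% of its 31-base windows with other genes, so its value may hold fragments of its relatives.

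Genes of the red cell were prominent among the largest differences in the other direction. Car1, carbonic anhydrase I (ENSMUSG00000027556, chr3:14766217-14778459 on the minus strand of NCBIM37), was at 281, 184, 1126, 918 and 2541 FPKM in CMP and 0.65, 0.7, 9.57, 17.1 and 9.47 FPKM in GMP. The CMP samples spread over more than 10-fold but did not overlap with GMP, and the difference was -6.90 (SE 0.82, limma adjusted p = 3.58e-05). Car2, carbonic anhydrase II, differed by -5.19, the erythroblast membrane protein gene Ermap by -5.01 and the water channel gene Aqp1 by -4.98. Next came Gm15915 (-4.98), a gene without a described product, the carboxylesterase gene Ces2g (-4.75), the sodium pump subunit gene Atp1b2 (-4.71), Dntt (-4.68), the terminal transferase of lymphoid precursors, Mfsd2b (-4.60), the sphingosine-1-phosphate exporter of red cells and platelets, and Zfpm1 (-4.48). These 10 were likewise taken from called genes without overlap. Car1 shares 21.9% of its windows with other genes.

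**Figure D3:**
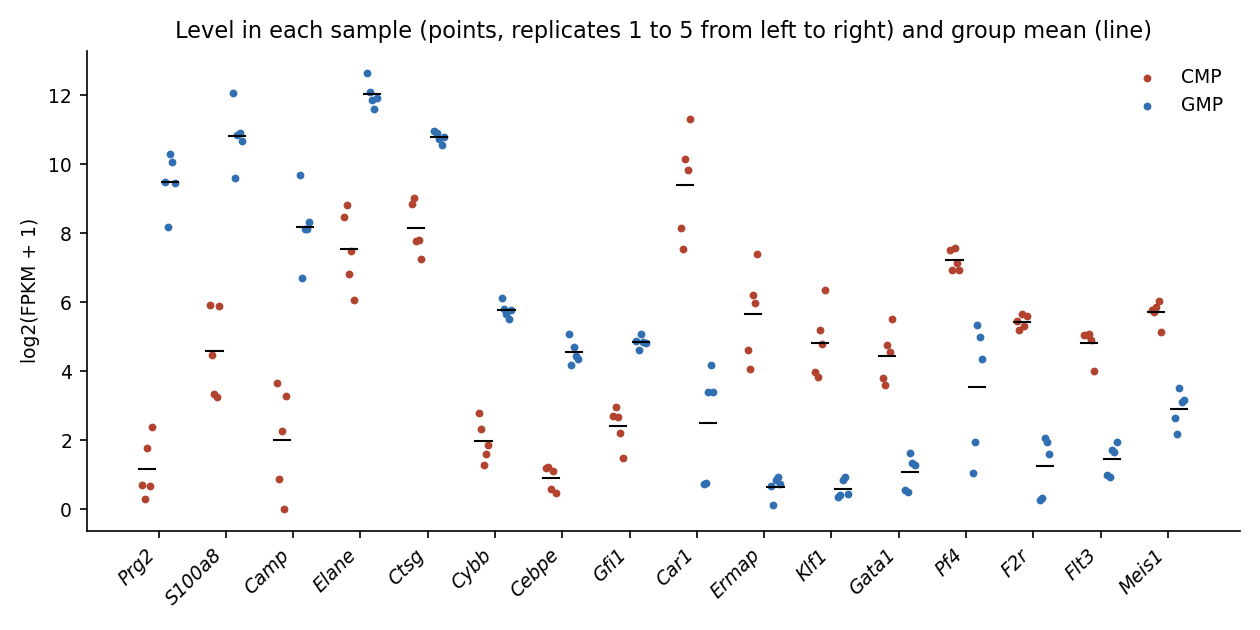
Level of 16 genes in each of the 5 CMP (red) and 5 GMP (blue) samples as log2(FPKM + 1); points are samples, replicates 1 to 5 from left to right, and horizontal lines are group means. The granule, oxidase and granulocyte factor genes on the left are higher in GMP and the erythroid, megakaryocyte and stem cell genes on the right are higher in CMP, with no overlap in any of the 16; Car1 and Pf4 in GMP are lowest in replicates 1 and 2.

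Genes of the primary granule list, which also holds the membrane protein gene Ms4a3, were higher in GMP. Several of them were already expressed in CMP. Fcnb, with the largest difference of the list (6.26), was not: it was at 0 to 1.16 FPKM in CMP and 77.2 to 191 FPKM in GMP. Elane, neutrophil elastase (ENSMUSG00000020125, chr10:79349057-79350961 on the plus strand of NCBIM37), was at 351, 447, 112, 177 and 66.2 FPKM in CMP replicates 1 to 5 and at 6449, 4386, 3724, 3078 and 3872 FPKM in GMP replicates 1 to 5. The groups did not overlap, the ratio of the means was 18.6, and the difference was 4.50 (SE 0.44, limma adjusted p = 9.2e-06). Ctsg, cathepsin G, was already at 460.4, 515, 217, 223 and 150.3 FPKM in CMP and reached 1986, 1897, 1714, 1511 and 1757 FPKM in GMP, a difference of 2.65. Of the 12 genes in the list, 12 were tested and all 12 were higher in GMP, with a median difference of 2.32 against -0.19 for all genes. These included the myeloperoxidase gene Mpo (2.45) and the proteinase 3 gene Prtn3 (2.42), 2 of the defining products of the granule, which were named after their values were seen. Within CMP the list was uneven: 9 of its 12 genes were highest in replicate 2, and 10 were lowest in replicate 5, whose summed level of 2287 FPKM stood against 7122 FPKM in replicate 2. GMP samples ranged from 20190 to 29364 FPKM.

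Genes of later granules were low in CMP. S100a8 was at 59.4, 21.2, 9.15, 8.47 and 58.8 FPKM in CMP and at 4245, 770.2, 1856, 1904 and 1636 FPKM in GMP. Camp was at 11.6, 0.85, 3.8, 0 and 8.63 FPKM in CMP and 821, 102, 278, 276 and 322 FPKM in GMP. In GMP, replicate 1 was the highest and replicate 2 the lowest for both, and every GMP sample exceeded every CMP sample. All 17 of 17 genes of the late granulocyte list were higher in GMP (median 3.05), among them Ltf for lactoferrin (3.99), Lcn2 for lipocalin-2 (4.10), Mmp8 for neutrophil collagenase (1.35) and Mmp9 for gelatinase B (1.48), which were named after their values were seen. The summed level of the list ran from 26.9 to 272.3 FPKM in CMP and from 1812 to 11728 FPKM in GMP. The count was 9 where the spread was estimated over all 6 normal groups, and 9 in the samples numbered 1 and 2 alone.

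Eosinophil and basophil products were also on the GMP side. Epx, eosinophil peroxidase, was between 0 and 0.13 FPKM in CMP and at 17.1, 9.33, 35.7, 26.9 and 15.5 FPKM in GMP (difference 4.27). Ear1 and Ear6, eosinophil-associated ribonucleases, differed by 4.25 and 4.22, and 6 of 7 eosinophil genes tested were higher in GMP (median 4.22). Ear1 shares 68.9% of its windows with related genes, so the ribonucleases cannot be fully separated. The exception was Siglec5, an inhibitory lectin receptor, at 5.97 to 9.28 FPKM in CMP and 5.28 to 9.79 FPKM in GMP (difference -0.04, SE 0.17).

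The mast cell and basophil list was divided. Of 10 genes tested from 17, 5 were higher in GMP and 2 in CMP. On the GMP side were Prss34, Mcpt8 (2.55), another basophil protease, and Hdc (2.34), the histidine decarboxylase that makes histamine. On the CMP side were Il1rl1, the interleukin 33 receptor, at 7.23, 6.14, 12.5, 11.9 and 18.8 FPKM in CMP and 1.14, 0.49, 3.32, 1.88 and 1.83 FPKM in GMP (-2.16), and Slc18a2, the vesicular monoamine transporter (-1.59). Cpa3, the carboxypeptidase of mast cell granules, was expressed in all samples, at 26.9 to 62.1 FPKM in CMP and 24.5 to 103 FPKM in GMP, with a difference of 0.21 (SE 0.34).

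Monocyte genes were higher in GMP for 10 of 18 genes tested from 20, and none was higher in CMP. Ly6c2, a surface antigen of inflammatory monocytes, was at 142, 188, 44.1, 57.7 and 33.5 FPKM in CMP and 2050.1, 1847, 1292, 1205 and 1492 FPKM in GMP (4.36). The groups did not overlap, and as with Elane and Ctsg CMP replicates 1 and 2 were the highest of the CMP. Ly6c1 differed by 3.64, and because Ly6c1 and Ly6c2 share 51.7% and 53.5% of their sequence windows with other genes, their values cannot be fully separated. Clec12a, an inhibitory lectin receptor, differed by 2.48 and Lyz2, lysozyme, by 2.13. Irf8, a factor of monocyte and dendritic cell fate, was at 78.8, 96.7, 43.9, 42.7 and 43.9 FPKM in CMP and 54.99, 60.3, 40.03, 34.6 and 51.1 FPKM in GMP. These values overlapped (difference -0.28, SE 0.24, adjusted p = 0.36), as did those of the M-CSF receptor gene Csf1r (0.46), which was named after its value was seen. The list's count was 5 with the spread of all 6 normal groups and 6 in samples 1 and 2 alone.

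The transcription factor genes differed in an uneven way. Cebpe, the C/EBP factor of terminal granulocyte maturation (ENSMUSG00000052435, chr14:55329200-55331011 on the minus strand of NCBIM37), was at 1.27, 1.32, 0.51, 1.16 and 0.38 FPKM in CMP and 32.5, 17.1, 24.8, 20.6 and 19.3 FPKM in GMP, with no overlap and a difference of 3.63 (SE 0.20, limma adjusted p = 1.21e-07). Gfi1, a repressor that acts in granulocyte precursors, was at 5.47, 6.78, 5.31, 3.61 and 1.79 FPKM and 28.6, 23.7, 33.1, 27.9 and 27.2 FPKM (2.46), and Cebpd differed by 1.29. Of 17 myeloid factors tested, 4 were higher in GMP and 1, the immediate early gene Egr1, was higher in CMP. The remaining 12 were not called, and the list's median was 0.01. Among them were the genes for the factors most often linked to this lineage, Sfpi1 (0.30), Cebpa (0.82) and Runx1 (-0.53), named after their values were seen. Myb, a factor of all progenitors, was nearly level, at 223, 219, 224, 213 and 235 FPKM in CMP and 222, 202, 247, 229.8 and 225 FPKM in GMP (0.01, SE 0.08).

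Erythroid and megakaryocyte factors were higher in CMP for 12 of 18 genes, and none was higher in GMP (median -1.81). Klf1, the erythroid Krüppel-like factor (ENSMUSG00000054191, chr8:87425827-87429194 on the plus strand of NCBIM37), was at 14.6, 13.4, 35.3, 26.4 and 80.8 FPKM in CMP and 0.28, 0.32, 0.8, 0.9 and 0.36 FPKM in GMP (-4.23, SE 0.39, limma adjusted p = 5.95e-06). Gata1 was at 12.9, 11.2, 26.04, 22.4 and 44.5 FPKM in CMP and 0.48, 0.4, 2.1, 1.55 and 1.45 FPKM in GMP (-3.38). In both genes CMP replicate 5 was the highest sample and CMP replicates 1 and 2 the lowest of the CMP, yet still several times over the highest GMP sample. Zfpm1, for the GATA1 cofactor, was the most different of the list: it was at 28.7, 29.4, 40.2, 40.1 and 57.1 FPKM in CMP and under 2 FPKM in every GMP sample. Gfi1b, the paralogue of Gfi1 in the red cell and platelet lineages, differed by -4.29, opposite in direction to Gfi1. Others of the 12 were Gata2 (-2.74), Tal1 (-2.38) and Mecom (-2.24), whereas Fli1 (-0.20), Lyl1 (-0.06) and Nfe2 (-0.51) were not called; these were named after their values were seen.

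Red cell genes were on the CMP side. In the erythroid list 21 of 23 genes tested were higher in CMP, with a median difference of -3.30, and leaving out any 1 sample kept the count between 19 and 21. Epor, the erythropoietin receptor gene, was at 9.33, 5.6, 17.7, 15.04 and 37.1 FPKM in CMP and 0, 0.36, 0.14, 0.23 and 0.29 FPKM in GMP (-3.65). The list was uneven within CMP: its summed level was 2138, 1399, 2284, 1746 and 5174 FPKM in CMP replicates 1 to 5. Of its 23 genes, 18 were highest in replicate 5, the CMP sample with the lowest sum of the primary granule list. In GMP the sum was 141 to 429 FPKM. The globin gene Hbb-b1 was at 643, 402, 76.8, 73.5 and 191 FPKM in CMP and 97.5, 44.2, 116, 48.9 and 189.9 FPKM in GMP, so the groups overlapped and the difference of -1.17 (SE 0.60) was not called. Its order over the CMP samples, with replicates 1 and 2 highest, was unlike that of Klf1, Car1 or Epor, and it shares 43.98% of its windows with other globin genes.

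Haem synthesis, the pathway that supplies haemoglobin, was split at its first step. Alas1, the housekeeping form of the first enzyme, was at 44.2, 47.7, 22.6, 24.1 and 18.6 FPKM in CMP and 225, 170.1, 185, 157 and 186 FPKM in GMP, higher in GMP by 2.60 (SE 0.24, limma adjusted p = 4.95e-06). The erythroid form, Alas2 (-1.02, named after its value was seen), and several later enzymes were higher in CMP: Cpox by -1.56, Alad by -1.56 and Urod by -1.28 on the log2 scale. Fech (-0.56), the last enzyme of the pathway, and Ppox (-0.81, named after its value was seen) were not called. In all, 6 of 9 genes were higher in CMP and 1 in GMP. CMP replicate 5 was highest for Cpox (13.6, 12.8, 25.9, 20.3 and 64.9 FPKM), Alad and Urod, and without it the count of genes higher in CMP was 3. It was also 3 after median-ratio scaling.

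Megakaryocyte and platelet genes were higher in CMP for 14 of 16 genes tested from 23 (median -2.11). F2r, the thrombin receptor PAR1, was at 42.6, 35.7, 49.2, 38.8 and 47.04 FPKM in CMP and 0.2, 0.24, 3.18, 2.86 and 2.06 FPKM in GMP, with no overlap (-4.20, SE 0.34, limma adjusted p = 2.18e-06). Gp9, a subunit of the von Willebrand factor receptor, differed by -2.67. Pf4, platelet factor 4, was at 180.04, 122, 189, 141 and 120.3 FPKM in CMP and 1.05, 2.83, 39.4, 30.5 and 19.6 FPKM in GMP (-3.69, SE 0.71). The groups did not overlap, but GMP replicates 1 and 2 were well below GMP replicates 3 to 5. Cd9, a tetraspanin, was at 24.4 to 38.2 FPKM in CMP and 14.5 to 27.9 FPKM in GMP and was not called (-0.54).

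CMP also had the higher levels of stem and multipotent progenitor genes. Flt3, the receptor of early progenitors, was at 32.1, 31.96, 32.8, 28.8 and 15.2 FPKM in CMP and 0.99, 0.91, 2.27, 2.13 and 2.84 FPKM in GMP (-3.37, SE 0.25, limma adjusted p = 1.01e-06). CMP replicate 5 was the lowest of the CMP and still over 5 times the highest GMP sample. Meis1, a homeobox partner of HOX proteins, was at 53.7, 52, 57.2, 64.8 and 34.3 FPKM and 5.19, 3.52, 10.5, 7.56 and 7.98 FPKM (-2.79). The niche ligand gene Angpt1 differed by -2.66 and the adhesion receptor gene Gpr56 by -2.65. Of 14 genes tested from 19, 12 were higher in CMP (median -1.79). Cd48, a surface protein gained as stem cells become progenitors, went the other way without reaching the fold threshold, at 64.9 to 114 FPKM in CMP and 129.7 to 149.7 FPKM in GMP (0.53).

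HOX genes and their cofactors were higher in CMP for 5 of 9 genes tested, with 10 of the 19 in the list under the filter. Among these were Meis1, Hoxa7 (-1.23), Hoxa9 (-1.19) and Hoxa3 (-1.11), the last named after its value was seen. Hoxa9 was at 10.4, 7.91, 8.09, 9.06 and 5.61 FPKM in CMP and 3.97, 2.79, 2.76, 2.96 and 2.57 FPKM in GMP, low in both but without overlap. Pbx2, which is widely expressed, differed by -0.32. With the GC correction 3 genes of the list were called.

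Lymphoid genes gave a mixed result. Dntt was at 23.6, 20.01, 54.7, 33.9 and 25.9 FPKM in CMP and at or under 0.51 FPKM in GMP (-4.68, SE 0.23, limma adjusted p = 7.55e-08). The other 3 calls of the list were small, and the count of 4 among 11 genes tested was 1 after scaling or GC correction and 2 without CMP replicate 4, GMP replicate 1 or GMP replicate 4. Ighm, the immunoglobulin μ chain, was at 195, 184, 107, 124 and 94.3 FPKM in CMP and 154, 160.2, 105, 95.1 and 141 FPKM in GMP (-0.07). In the dendritic cell list, Zbtb46, a factor of classical dendritic cells, differed by -1.90, Runx2 by -1.26 and Tcf4, the factor of plasmacytoid dendritic cells, by -1.19, and 8 of its 13 genes were under the filter. With the GC correction 1 gene of the list was called.

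MHC class II genes differed both between the groups and between replicates. Cd74, the invariant chain, was at 36.5, 33.2, 126, 197 and 138 FPKM in CMP replicates 1 to 5 and 1.63, 1.58, 49.1, 47.2 and 44.5 FPKM in GMP replicates 1 to 5. Replicates 1 and 2 were low and replicates 3 to 5 high in each group, so that CMP replicates 1 and 2 lay below GMP replicates 3 to 5. The difference of -2.51 (SE 0.94, adjusted p = 0.043) was no longer called without CMP replicate 3 (-2.36), CMP replicate 4 (-2.21), CMP replicate 5 (-2.33), GMP replicate 1 (-1.88) or GMP replicate 2 (-1.88). H2-Ab1, a class II β chain, had the same order (-1.67). H2-Ob, a chain of the peptide-loading regulator, was at 17.5, 13.8, 19.1, 21.4 and 10.9 FPKM in CMP and 2.26, 1.96, 3.54, 3.31 and 2.83 FPKM in GMP and did not overlap (-2.20). In all 3 of 9 genes tested were higher in CMP. Within samples 1 and 2 alone, and within samples 3 to 5 alone, 5 were. More than 3 were also called with the replicate number as a block.

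This division of replicates 1 and 2 from replicates 3 to 5 was also seen in other genes. Among the 11708 genes tested, replicates 1 and 2 lay below replicates 3 to 5 in both CMP and GMP for 245, and above them for 429. How many genes would be divided in this way by order alone was not computed. The labels name no batch. The comparison of CMP with GMP gave 1435 calls in the samples numbered 1 and 2 and 1515 in those numbered 3 to 5, against 1463 in all, a check chosen after seeing the data.

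Immediate early genes, which are induced within minutes of a stimulus, differed between replicates as well as between groups. Junb, a subunit of the AP-1 factor, was at 8.48, 21.2, 2.55, 5.33 and 4.75 FPKM in CMP and 1.95, 4.41, 1.16, 1.19 and 1.17 FPKM in GMP (-1.48, SE 0.43), and Egr1 at 35.4, 203, 7.86, 47.1 and 25.7 FPKM and 0.64, 12.4, 0.68, 4.14 and 0.7 FPKM (-3.60, SE 0.78). Replicate 2 was the highest in both groups for all 14 genes of the list tested, and the ranges of CMP and GMP overlapped for these 2 genes. At each replicate number, Junb and Egr1 were higher in CMP than in GMP. The count of 4 genes higher in CMP was 2 without CMP replicate 1, CMP replicate 2, GMP replicate 3 or GMP replicate 5, 7 without CMP replicate 3 and 8 without GMP replicate 2. It was also larger than 4 with the replicate number as a block.

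Most cytokine and chemokine receptor genes were not called, and the list had a median difference of -0.03, against -0.19 for all genes. Of 27 receptors tested, 7 were higher in CMP, including Epor, Flt3 and Il1rl1, and 2 in GMP. Over all genes tested, 8.28% were higher in CMP and 4.21% in GMP, so more calls in CMP was not particular to receptors. The 2 higher in GMP were Cxcr4, the receptor that retains cells in the marrow, at 64.7, 69.5, 54.9, 53.3 and 37.7 FPKM in CMP and 127, 136, 122, 112 and 142 FPKM in GMP (1.20), and the interferon γ receptor chain Ifngr1 at 53.5, 49.6, 66.8, 56.2 and 80.98 FPKM and 152, 143, 141, 131 and 135 FPKM (1.20). Receptors of the granulocyte and monocyte growth factors, Csf3r (0.76), Csf2ra (0.78) and Csf1r, did not pass the fold threshold; the first 2 were named after their values were seen. The count higher in GMP was 4 without CMP replicate 1, CMP replicate 2 or GMP replicate 4, 4 after scaling and 6 with the GC correction.

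Genes for making and folding secreted proteins were higher in GMP for 17 of 34, with a median of 0.95 and 1 gene in the other direction. Hsp90b1, the chaperone GRP94, was at 424, 412, 388, 294 and 326 FPKM in CMP and 959.8, 1059.8, 985, 882 and 973 FPKM in GMP. Its groups were more than 2-fold apart with little spread (1.41, SE 0.11, limma adjusted p = 2.21e-06). Ero1l, an oxidase that serves disulphide formation, differed by 1.63, the stress-induced factor Manf by 1.60 and the transcription factor Xbp1, which drives the secretory apparatus, by 1.39. Ddit3 (CHOP), a factor induced by unresolved endoplasmic reticulum stress, was the exception, at 14.03, 15.7, 18.8, 14.1 and 15.8 FPKM in CMP and 6.19, 5.42, 8.08, 5.22 and 7.74 FPKM in GMP (-1.16), and was not called after scaling (-0.96). Canx, the chaperone calnexin, did not overlap between groups but stayed under the fold threshold (0.71).

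Lysosomal genes were higher in GMP for 9 of 27 (median 0.67). Cd63, a tetraspanin of lysosomes and primary granules, was at 52.05, 49.3, 60.6, 50.01 and 37.1 FPKM in CMP and 348, 309, 374, 355 and 331 FPKM in GMP, a ratio of means of 6.89 (2.77, SE 0.12, limma adjusted p = 3.04e-08). It shares 48.4% of its windows with other genes. The cathepsin genes Ctsh (1.59) and Ctsb (1.18) and the membrane protein gene Lamp2 (1.25) were of the same direction. Laptm5, a lysosomal membrane protein of blood cells and the most expressed gene of the list that was not called, was at 523 to 874 FPKM in CMP and 407 to 642 FPKM in GMP (-0.41).

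The phagocyte oxidase, which makes superoxide, was higher in GMP for 4 of its 6 genes. Cybb, the catalytic subunit gp91phox, was at 5.97, 3.99, 1.44, 2.06 and 2.6 FPKM in CMP and 68.3, 54.5, 49.9, 44.2 and 53.7 FPKM in GMP (3.80, SE 0.24, limma adjusted p = 3.93e-07). Its membrane partner gene Cyba was already at 26.8 to 35.2 FPKM in CMP and differed less (1.43), and the cytosolic subunit genes Ncf4 (1.39) and Ncf1 (1.28) lay near Cyba. The GTPase gene Rac2 overlapped between groups (0.61). The count was 2 in samples 1 and 2 alone.

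Of 16 Toll-like receptor genes and adaptors tested, 4 were higher in GMP: Tlr4 (1.85), the receptor of lipopolysaccharide, its co-receptor gene Cd14 (1.38), Tlr1 (1.47) and Irak3 (1.22), an inhibitor of the pathway. Tlr4 was low, at 1.73, 1.43, 1.7, 1.63 and 0.5 FPKM in CMP and 8.9, 8.43, 5.78, 7.58 and 6.92 FPKM in GMP. Of 18 interferon response genes, 6 were higher in CMP (4 after scaling), 1 was higher in GMP and 11 were not called. Those higher in CMP were led by Rtp4 (-1.71), Ifitm1 (-1.66) and Oasl2 (-1.55). Ifitm1 was at 139, 140.1, 143, 131 and 117 FPKM in CMP and 29.5, 19.9, 66.5, 51.03 and 61.5 FPKM in GMP. Ifitm6, a myeloid member of the same family, was at 6.73, 4.06, 3.43, 3.7 and 5.75 FPKM and 35.1, 14.1, 46.8, 47.5 and 56.7 FPKM, higher in GMP (2.74).

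Adhesion genes were called in both directions. Itga2b, the integrin CD41 of platelets, was at 54.8, 45.9, 44.6, 44.96 and 32.6 FPKM in CMP and 3.71, 2.56, 14.99, 16.3 and 7.14 FPKM in GMP (-2.45), and Alcam, a cell adhesion molecule of leukocytes, at 5.35, 6.97, 7.31, 5.99 and 3.36 FPKM and 17.4, 14.8, 16.97, 14.9 and 11.7 FPKM (1.27). Itga2b in GMP was lowest in replicates 1 and 2, as Pf4 was. Of 19 genes tested 4 were higher in GMP, a count that was 2 without GMP replicate 1 or GMP replicate 3, and 3 were higher in CMP.

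Glycolysis genes had a median difference of 0.68, against -0.19 for all genes. Their summed level was 2626 to 3814 FPKM in CMP and 4250 to 5481 FPKM in GMP. By limma, 17 of 18 had an adjusted p below 0.05, in both directions, as did 5739 of all 11708 genes. Among hexokinases, Hk3, the form of granulocytes, was at 60.99, 61.6, 24.5, 36.2 and 19.1 FPKM in CMP and 108, 101, 110.3, 108 and 94.1 FPKM in GMP (1.49), while Hk1, the form of red cells and most tissues, was at 41.95, 44.1, 61.6, 58.98 and 88.4 FPKM and 22.1, 21.6, 24.2, 21.2 and 18.1 FPKM (-1.37). The opposite differences of these enzymes for the same step were each without overlap; Hk1 was not called with the GC correction (-0.88). The lactate dehydrogenase gene Ldhb differed by 1.93 and the phosphofructokinase gene Pfkm by -1.70. In all 4 of 18 glycolysis genes were higher in GMP (7 after scaling, 8 with the GC correction) and 3 in CMP. Pgd, an enzyme of the pentose phosphate pathway that supplies NADPH, was at 69, 69.6, 56.5, 42.96 and 65 FPKM in CMP and 202, 186, 168, 135 and 155 FPKM in GMP (1.47), the 1 gene called of 7. No gene of 20 in cholesterol synthesis was called by limma (10 at an unadjusted p below 0.05, and 2 higher in GMP after scaling); Fdps was the most expressed of them (0.87).

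Genes of cell division stayed under the fold threshold. None of 30 DNA replication genes and none of 25 mitosis genes tested was called by limma, with medians of 0.08 and -0.12 and single differences between -0.70 and 0.78. At an unadjusted p below 0.05 there were 9 and 11 of them, small and in both directions, and after scaling or GC correction none of either list was called. Pcna, the polymerase clamp, was at 364, 342, 397, 299 and 396 FPKM in CMP and 377, 431, 360.03, 334 and 426 FPKM in GMP (0.10, SE 0.11), and Top2a, topoisomerase II, at 166, 160.3, 187, 166 and 154 FPKM and 143, 164, 157, 150.3 and 144 FPKM (-0.13, SE 0.08). Both ranges overlapped. Regulators of entry into the cycle were higher in CMP for 4 of 14 genes. Mycn was at 5.92, 5.1, 6.94, 4.98 and 6.16 FPKM in CMP and at or under 0.44 FPKM in GMP (-2.55), and Myc at 281, 289.5, 238, 249.6 and 283 FPKM and 129, 109, 119.8, 96.8 and 137 FPKM (-1.18, or -0.96 after scaling, under the fold threshold). After scaling 1 gene of the list was called. Ribosome biogenesis, a process that Myc drives, held 1 call among 21 genes, which was lost after scaling and without CMP replicate 3 or CMP replicate 5, and its most expressed gene, Npm1, differed by -0.25. The survival gene Bcl2 was at 45.6, 49.6, 38.5, 31.3 and 22.8 FPKM in CMP and 15.4, 14.7, 16.7, 15.3 and 16.8 FPKM in GMP (-1.15, or -0.94 after scaling), the 1 call among 9 genes of its family. Of 15 genes of the mitochondrial genome, 2 were called, both with overlapping samples, and none was called without CMP replicate 4, whose mitochondrial share was the highest.

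**Figure D4:**
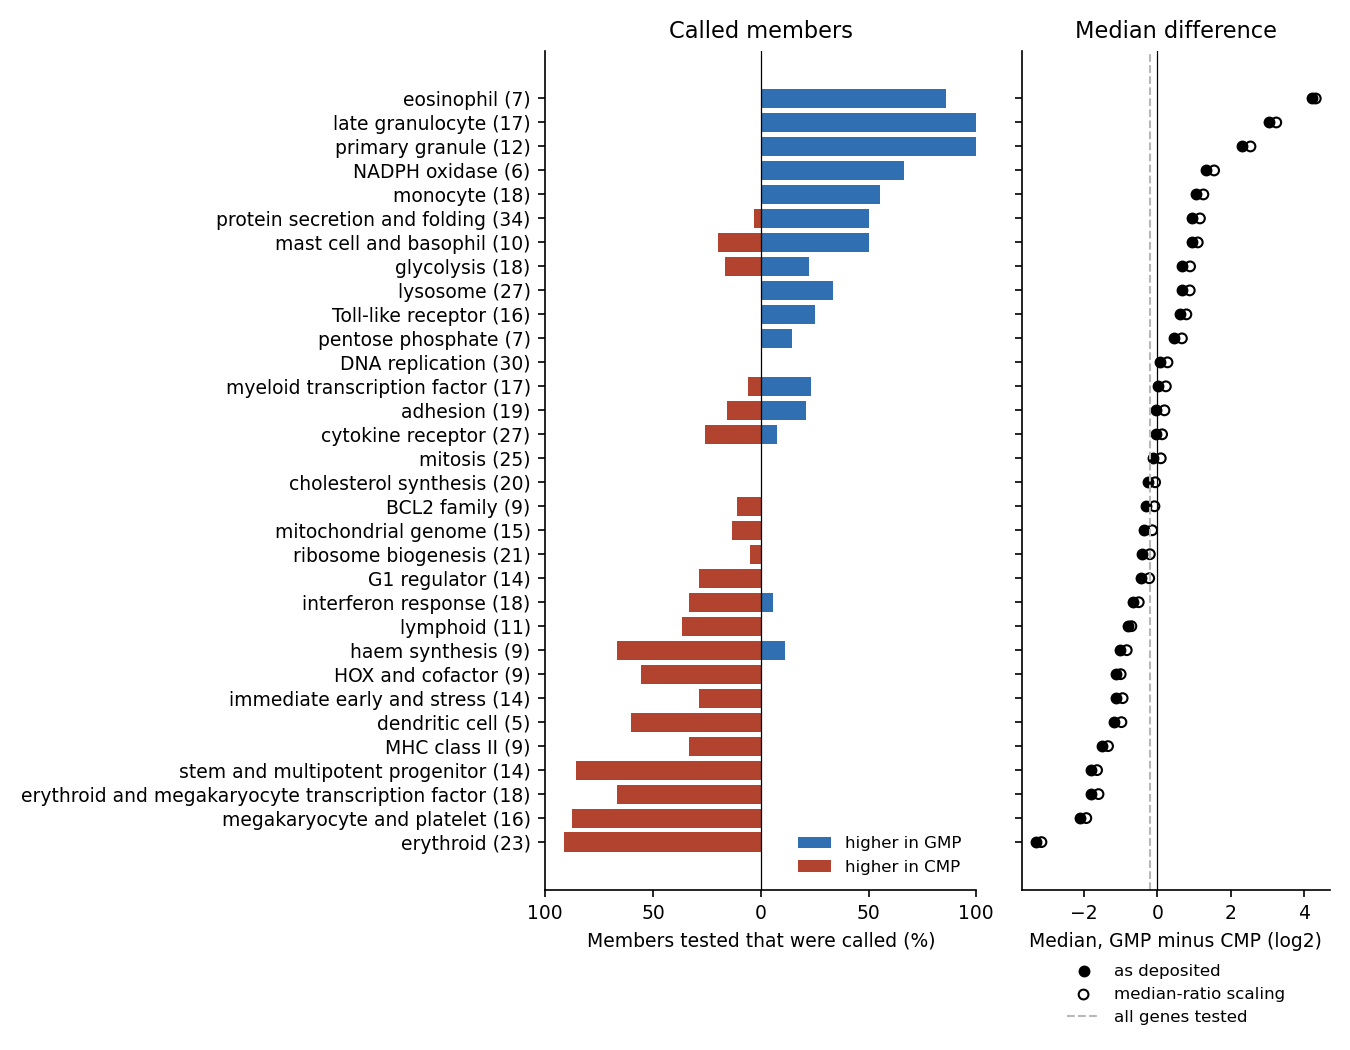
For each list of genes (number tested in brackets), left, the percent of genes called higher in GMP (blue, to the right) and in CMP (red, to the left); right, the median difference, GMP minus CMP, in log2(FPKM + 1), as deposited (filled) and after median-ratio scaling (open), with the median of all genes (-0.19) dashed. Eosinophil and granulocyte lists lie at the top and erythroid, megakaryocyte and stem cell lists at the bottom; replication, mitosis and cholesterol lists have no call.

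Some genes without a symbol were among the calls, 33 of 1463. The gene ENSMUSG00000097582 was at 5.21, 1.73, 3.3, 7.52 and 6.47 FPKM in CMP and 59.6, 57.1, 65.1, 59.2 and 61.02 FPKM in GMP (3.50), and ENSMUSG00000096807 at 325, 313, 254, 225 and 434 FPKM and 158, 49.9, 42.9, 38.3 and 67.3 FPKM (-2.28). Both were without overlap between groups.

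The levels in MPP and MEP were read beside those in CMP and GMP. Klf1 had a mean of 2.98 FPKM (SD 2.04, n = 6) in MPP, 34.1 FPKM (SD 27.6, n = 5) in CMP, 0.532 FPKM (SD 0.294, n = 5) in GMP and 119 FPKM (SD 8.48, n = 4) in MEP. Car1 was in the same order, with means of 49.8, 1010.1, 7.5 and 2818 FPKM. For both, CMP was between GMP and MEP. Car1 also had a mean of 1294 FPKM (SD 963) in LT-HSC and 148 FPKM (SD 22) in ST-HSC, so its level did not rise steadily through the scheme. Among MPP, CMP, GMP and MEP, Pf4 had its highest mean in CMP, with 151 FPKM (SD 32.3) against 17.1 FPKM (SD 10.7) in MEP and 2.88 FPKM (SD 1.59) in MPP. Flt3 and Dntt had theirs in MPP, at 82.7 FPKM (SD 5.42) and 269 FPKM (SD 29.4), with 28.2 and 31.6 FPKM in CMP and 0.907 and 21.7 FPKM in MEP.

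Granule genes took different orders over MPP, CMP, GMP and MEP. The median level of Ngp was lowest in MPP, at 1.89 FPKM against 9.1 FPKM in CMP and 42.8 FPKM in MEP. Those of Camp and S100a9 were also lowest in MPP, at 2.725 and 28.3 FPKM, but near those in CMP, at 3.8 and 28.9 FPKM. The medians of Elane, Prg2 and S100a8 were not lowest in MPP. Elane had a mean of 385 FPKM (SD 214) in MPP and 231 FPKM (SD 162) in CMP. Its samples overlapped, at 42.7 to 624 FPKM in MPP and 66.2 to 447 FPKM in CMP. In MEP its mean was 8.48 FPKM (SD 9.45). Prg2 had a lowest, median and highest level of 50.1, 231 and 1396 FPKM in MPP and of 0.72, 5.62 and 166 FPKM in MEP, while no CMP sample was above 4.21 FPKM. For S100a8 these were 4.93, 41.3 and 283 FPKM in MPP and 14.9, 145 and 997 FPKM in MEP. Its means were 6124 FPKM (SD 9080) in LT-HSC and 3046 FPKM (SD 5431) in ST-HSC, against 2082 FPKM (SD 1292) in GMP. No test was made across these groups, and the spread outside CMP and GMP for these genes was wide.

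The same contrast was then read in the leukaemias, to ask whether CMP and GMP differences were present between CMP:MA9 and GMP:MA9. In a fit of the 4 groups, 46 of 12245 genes (0.376%) were called between the leukaemias, 9 higher in GMP:MA9 and 37 higher in CMP:MA9, and 2073 genes had an unadjusted p below 0.05. Of the 1463 genes called between CMP and GMP, 1370 were among the 12245 genes tested in this fit. Between the leukaemias 11 of them were called (0.803%), all 11 in the direction of the normal cells. These 11 were 23.9% of the 46, a share to be read beside the 1370 among all 12245 genes. The median absolute difference of the CMP and GMP calls was 1.38 on the log2 scale in normal cells, and 0.20 in the leukaemias, where it was 0.19 for all genes tested. The number of leukaemia calls was 17 without CMP:MA9 replicate 2 or CMP:MA9 replicate 4.

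The change of the difference itself was tested as an interaction. It was called for 1263 genes (10.3%), and for 951 (69.4%) of the CMP and GMP calls. The second share is a description, since those genes were chosen by the normal difference that is part of the interaction. The same holds for the genes named below, which were chosen in that way. Car1, at 184 FPKM or more in every CMP sample, was between 0 and 0.14 FPKM in all 10 leukaemias, and its difference changed by 6.91 (SE 0.91, limma adjusted p = 2.91e-05). Klf1 was at or below 0.61 FPKM and Gata1 at or below 0.41 FPKM in every leukaemia. S100a8 was at 311, 1994, 7383 and 328 FPKM in the 4 CMP:MA9 leukaemias and at 2909, 1826, 392, 3156, 691 and 5422 FPKM in the 6 GMP:MA9 leukaemias, so that both ranges reached the level of normal GMP and overlapped widely. Its difference changed by -5.62 (SE 1.20, limma adjusted p = 0.00251). Prg2 was at 7.64, 111, 275 and 66.7 FPKM in CMP:MA9 and 399.6, 1.94, 11.3, 106, 49.8 and 7.68 FPKM in GMP:MA9, with overlapping ranges (-9.46, SE 1.48). Elane was at 157, 291, 680.1 and 362 FPKM in CMP:MA9 and 187, 786, 87.9, 439.8, 33.5 and 832 FPKM in GMP:MA9, all below the lowest normal GMP sample of 3078 FPKM. Flt3 and Meis1, low in normal GMP, had means of 30.7 and 46.2 FPKM in CMP:MA9 and 28.4 and 51.1 FPKM in GMP:MA9, close to normal CMP in level. Leukaemia cells were from spleen and normal cells from marrow, so tissue and transformation cannot be told apart in these levels.

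**Figure D5:**
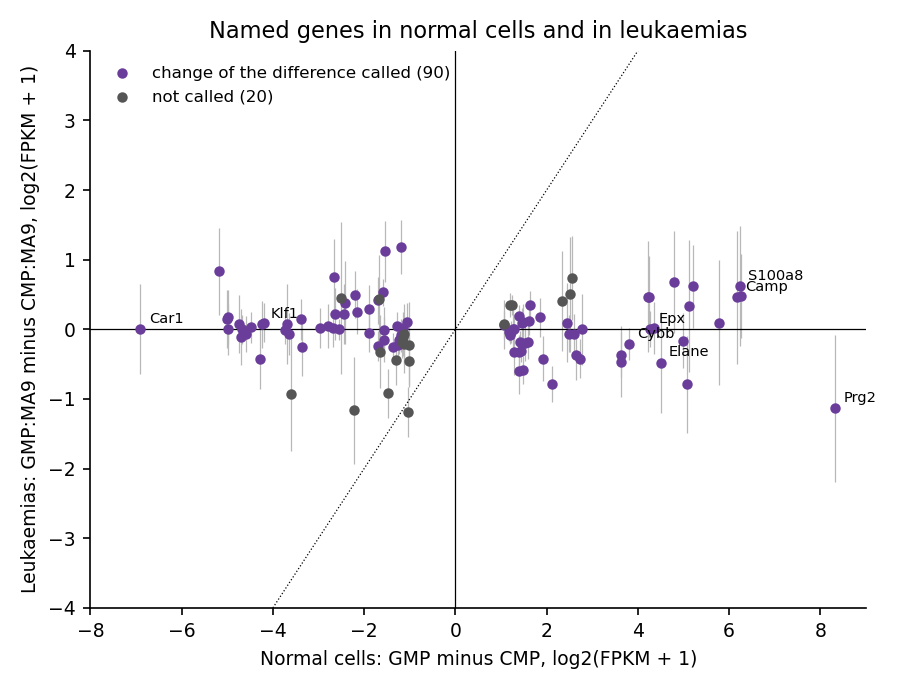
Difference between GMP:MA9 and CMP:MA9 (vertical axis, log2(FPKM + 1), bars are 1 SE) against that between normal GMP and CMP (horizontal axis, log2(FPKM + 1)) for 110 genes called between normal CMP and GMP. The points lie near 0 on the vertical axis, between -1.19 and 1.18, and not along the dotted line of equal differences. For 90 of them the change of the difference was called (purple). This count is a description, since the genes were chosen by the normal difference that is part of the change.

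The 11 genes called in both comparisons were not those of the lineage lists. The largest was Atp5g2, a subunit gene of the mitochondrial ATP synthase, at 8.73 to 24.7 FPKM in CMP:MA9 and at 0 in every GMP:MA9 sample, with a normal difference of -2.62. Hist1h2be, a replication-dependent histone gene, was at 13.95 to 20.5 FPKM in CMP:MA9 and 2.36 to 8.18 FPKM in GMP:MA9, with a normal difference of -1.58. Zfp36l1, an RNA-binding protein that shortens the life of messages, was at 6.33 to 29.15 FPKM and 2.74 to 10.2 FPKM, with a normal difference of -3.59. The genes without a symbol, ENSMUSG00000097582 and ENSMUSG00000096807, were among the 11. These genes were chosen after their values were seen. The others of the 11 were Dynlt1-ps1, a pseudogene by its symbol, Gm12751, Dusp3, AY036118, the histone gene Hist1h4d and ENSMUSG00000096617, which also has no symbol. Dynlt1-ps1 was at 1.03 to 50.1 FPKM in CMP:MA9 and 0 to 1.74 FPKM in GMP:MA9. The sequence that the 11 share with other genes is not reported here, and why they differed was not tested.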

How the data were processed

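RNA from sorted cells was amplified, sequenced and quantified by the authors with RSEM, and the values deposited by the authors are FPKM per Ensembl gene, rounded to 2 decimals. The submitters' processing notes name mm9; aligner and annotation were not given in the sources used here. The table holds 68 columns; 49 could be tied to a label by name and 19 could not and were left aside. Symbols and positions came from GENCODE M1 on NCBIM37, which held 33068 of the 38253 genes; positions are 1-based. FPKM hold no read totals, so relative depth was estimated from the steps of low values, leaving a residual SD of 0.045 (log2), and no counting interval was computed.

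Expression was compared on log2(FPKM + 1), with a pseudocount of 1, for the 11708 genes whose mean over 5 CMP and 5 GMP samples reached 1 FPKM. The two-sided tests came from limma 3.58.1 under R 4.3.3 (linear fit, moderated variance with trend, Benjamini-Hochberg adjustment across all these genes), after a test on simulated data. CMP:MA9 and GMP:MA9 were compared in a fit of 4 groups with the same filter over those samples. Groups were taken from the labels. Each sample came from an individual mouse, but the labels do not say whether a CMP and a GMP sample shared a mouse. The p-values treat the samples as independent and measure the spread between them. A gene near 0 in 1 group passes the filter through the other, so counts over a list are descriptions. Promoters were from RefSeq. The remaining work was done in Python 3.11.15, numpy 2.4.6 and pandas 2.3.3, and plots in matplotlib 3.10.9.

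The genes, lists and comparisons were chosen with earlier results of these data known. Named were the genes of the gate, the 10 largest rises and falls among called genes that did not overlap, and in each list up to 4 called genes with the largest difference, up to 2 called against the majority and the most expressed gene not called; some of these are not reported here, and any other gene is marked in the text. Alternatives were median-ratio scaling, a correction for GC content and length, a pseudocount of 0.1, no filter, no fold threshold, rescaling without the mitochondrial genome, a fit of the 6 normal groups, the replicate number as a block, and leaving out each sample; splits by replicate number were added after seeing the data.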

Additional observations from a re-analysis of the deposited data

Results flagged for a closer look

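In a group of 5 samples, the highest or lowest sample was taken as far from the others where its gap to the nearest exceeded 0.71 of the range. Of 308 such groups, 12 held one, and chance alone marks about 1 in 20. CMP replicate 5 was the most frequent: it had the lowest Flt3 (15.15 FPKM) and Tlr4 (0.5 FPKM), the highest Epx (0.13 FPKM) and Ear6 (0.23 FPKM), both near 0, the lowest summed level of the HOX and cofactor list (105.78 FPKM) and the highest total of all genes (864175.8 FPKM). CMP replicate 4 had the lowest Cyba (26.77 FPKM), Manf (39.21 FPKM) and Slamf1 (2.19 FPKM), and CMP replicate 1 the highest Prss34 (1.2 FPKM). GMP replicate 1 had the highest Fcnb (191.03 FPKM) and Clec4a2 (65.87 FPKM).

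The difference between CMP and GMP differed between normal cells and leukaemias for 1263 genes by the interaction term in limma. The change of the log2 difference was -9.46 for Prg2, -5.79 for Fcnb and -5.62 for S100a8, and 6.91 for Car1, 6.02 for Car2 and 5.16 for Ermap. Each is close in size to the normal difference with the sign turned. These 6 genes were chosen by their normal difference, which is part of the interaction, so their changes are descriptions.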

How the results depend on the processing

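The call of 1463 genes stayed within 1.5 times under every alternative with a fold threshold, from 1162 with the GC and length correction to 1975 with a pseudocount of 0.1, and leaving out 1 sample gave 1402 to 1521 (464 to 535 higher in GMP, 926 to 997 higher in CMP). Genes higher in CMP fell from 970 to 554 with the GC and length correction and to 569 with that correction and the replicate block. Without a fold threshold 5739 genes were called, 1659 higher in GMP and 4080 higher in CMP. The count between the leukaemias, 46, was 27 with the GC and length correction, 28 without a filter on low values and 24 with the replicate block; leaving out 1 sample gave 17 to 66, with 17 without CMP:MA9 replicate 2 or CMP:MA9 replicate 4. The count of genes whose difference changed in the leukaemias, 1263, was 1132 to 1322 when 1 sample was left out. The causes of these shifts were not tested. Of 97 called genes in the text, 5 lost the call after scaling, 8 with the GC and length correction, 6 in the fit of the 6 normal groups and 10 in samples 1 and 2 alone; none of them reversed under any alternative run. The first principal component held 62.8% of the variance, 57.0% with a pseudocount of 0.1 and 45.3% with genes scaled to unit variance.

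Same-numbered CMP and GMP samples had correlated deviations of 0.0469, 0.209, 0.124, 0.294 and 0.108 for numbers 1 to 5. The main fit did not take the numbers as pairs, because the labels tie no mouse or preparation to a number. Whether same-numbered samples shared either was not tested. With the replicate block 1477 genes were called, 494 higher in GMP and 983 higher in CMP; 9 of 10 samples correlated best with their own number. Immediate early genes higher in CMP were 9 with the block against 4 in the main fit, and MHC class II genes 5 against 3. Depth is known only as a ratio between samples, which limits statements on genes near 0.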
